A study of Mus musculus with 12 samples.

Results

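The cytosolic ribosome is built from a large and a small subunit, and its protein components are encoded by genes named Rpl or Rplp for the large subunit and Rps for the small one. Genes were taken by symbol, as Rpsa or as Rps, Rpl or Rplp followed by a digit. Kinases (Rps6k), symbols ending in l1 or l2 and pseudogene names were left out. This gave 82 genes of the 23174 lines in each of 2 expression tables, 48 for the large and 34 for the small subunit. Those whose mean was 1 FPKM or more (mapped fragments divided by transcript length in kilobases and by library size) were taken as measured: 69 ex vivo (40 large, 29 small) and 66 in the tumours (37 large, 29 small), with 64 in both. The symbol rule also admits some names that are not subunit proteins or that are tissue-restricted variants, such as Rps19bp1, a binding partner of Rps19, and these were kept.

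The study sequenced 12 poly-A selected RNA libraries from mouse T-ALL (acute lymphoblastic leukaemia of the T lineage, which arises from thymocyte-stage cells). All samples were of the C57BL/6 strain and carried the Notch1-deltaE allele, an activated Notch1. Ex vivo, leukaemia cells were given the CXCR4 antagonist AMD3100, a bicyclam drug (3 samples), or vehicle (3 samples). Primary tumours were Cxcr4-/- Notch1-deltaE+ (3 samples, numbered 5, 7 and 8) or Cxcr4+/+ Notch1-deltaE+ (3 samples, numbered 1, 2 and 4). Spleen leukaemia cells were kept on OP9 stromal cells in medium with IL-7 (5 ng/ml), a cytokine of lymphocyte growth, per the labels' protocols, which do not say whether the tumours were cultured too. The dose and duration of AMD3100, the age of the mice and the way Cxcr4 was deleted are not stated in those sources. Whether samples of the same group are separate animals or cultures is not stated, so p-values measure sample-to-sample spread, which can be technical. As FPKM carries no read counts, depth per library is unknown, and the 2 tables are compared only by description.

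Ribosomal proteins are made in matched amounts and assembled in the nucleolus, and growing cells spend much of their translation on them. Their mRNAs begin with a terminal oligopyrimidine (TOP) tract, a C followed by a run of C and T, through which mTORC1 signalling controls their translation, while Myc is known to raise their transcription together with that of ribosomal RNA. In human T-ALL, RPL5, RPL10, RPL11 and RPL22 are known targets of mutation or deletion, and in mice Rpl22 is needed for the development of αβ T cells.

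The T-cell identity of the samples was visible in both tables: all 12 T-cell marker genes passed the same limit of 1 FPKM. Their summed level was 3945 to 4490 FPKM in AMD3100 samples and 4705 to 4793 FPKM in vehicle samples, without overlap. The part of this difference in the ribosomal protein values was not tested. In the tumours the summed level was 2108 to 4516 FPKM for Cxcr4-/- and 1797 to 7087 FPKM for Cxcr4+/+. The haemoglobin share of all FPKM was 20.4%, 2.76% and 6.55% in the Cxcr4-/- tumours and 1.29%, 5.475% and 23.0% in the Cxcr4+/+ tumours, so that each genotype had a tumour rich in red-cell RNA. Neutrophil markers summed to 66.8 to 318 FPKM in Cxcr4-/- tumours and 5.57 to 3106 FPKM in Cxcr4+/+ tumours, which overlap. The highest sum was that of Cxcr4+/+ tumour 2, where S100a9 had 1393 FPKM, and its part in the ribosomal protein values was not tested. Stromal markers summed to 25.2 to 204 FPKM in AMD3100 samples and 15.1 to 199 FPKM in vehicle samples, which overlap. In samples 1 and 2 these sums came mainly from Pdgfrb, at 144 and 186 FPKM with AMD3100 and 136 and 160 FPKM with vehicle. Pdgfrb had at most 11.2 FPKM in sample 3 of either group, and Col1a1, Col1a2, Col3a1 and Sparc at most 3.81 FPKM ex vivo. Cxcr4-/- tumour 8 had 25 of the 82 ribosomal protein genes and 13231 of all lines listed at 0, the most of any library. In bulk RNA, fewer cells of a type and less RNA per cell cannot be told apart.

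The ribosomal protein mRNAs covered a wide range of listed levels. Ex vivo, 36 of the 82 had a mean of 100 FPKM or more, 15 lay between 10 and 100, 18 between 1 and 10, and 13 under 1. In the tumours the same classes held 33, 16, 17 and 16. The order of the genes was nearly the same in both tables, with a Spearman correlation of 0.982 between their mean FPKM over the 82 genes, given as a description. Of the 50 genes with the highest mean FPKM, 13 were ribosomal protein genes ex vivo and 8 in the tumours.

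The highest large-subunit mRNA in both tables was Rplp1, an acidic protein of the stalk that recruits elongation factors. It was listed at 4341, 5769 and 4769 FPKM in AMD3100 samples and 4446, 4358 and 3860 FPKM in vehicle samples. Rplp1 had 2120, 2391 and 2956 FPKM in Cxcr4-/- tumours and 1192, 2084 and 1452 FPKM in Cxcr4+/+ tumours, where the genotypes did not overlap. Next came Rpl8, a core protein near the peptidyl transferase centre, and Rplp0, the base of the stalk, with means over the 6 ex vivo samples of 2457 and 2201 FPKM. In the small subunit, Rps15 and Rps26 were among the most abundant in both tables, with means over the 6 ex vivo samples of 1585 and 1384 FPKM.

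At the other end, genes that a cell needs for any ribosome were listed near 0. Rps13, a small-subunit core protein, had 0, 0.589 and 0.914 FPKM in AMD3100 samples and 0.737, 0.812 and 0.487 FPKM in vehicle samples, and was listed at 0 in all 6 tumours. Rps29 was also listed at 0 in all 6 tumours. Rpl9 reached at most 0.884 FPKM ex vivo and was listed above 0 in 1 tumour. Germ-cell and muscle variants were at the floor as well: Rpl10l was listed at 0 in every library, Rpl39l in all 6 ex vivo samples, and Rpl3l had a mean under 1 FPKM in both tables. Rps4y2 was listed at 0 in all 6 ex vivo samples and had a mean over 1 FPKM in the tumours. Rps27l, a p53-induced relative of Rps27, and Rpl36al, a relative of Rpl36a, were listed far above those relatives: Rps27l at 157, 140 and 198 FPKM with AMD3100 and 157, 119 and 132 FPKM with vehicle, where Rps27 had 1.77 to 4.66 and 5.45 to 7.44 FPKM.

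**Figure D1:**
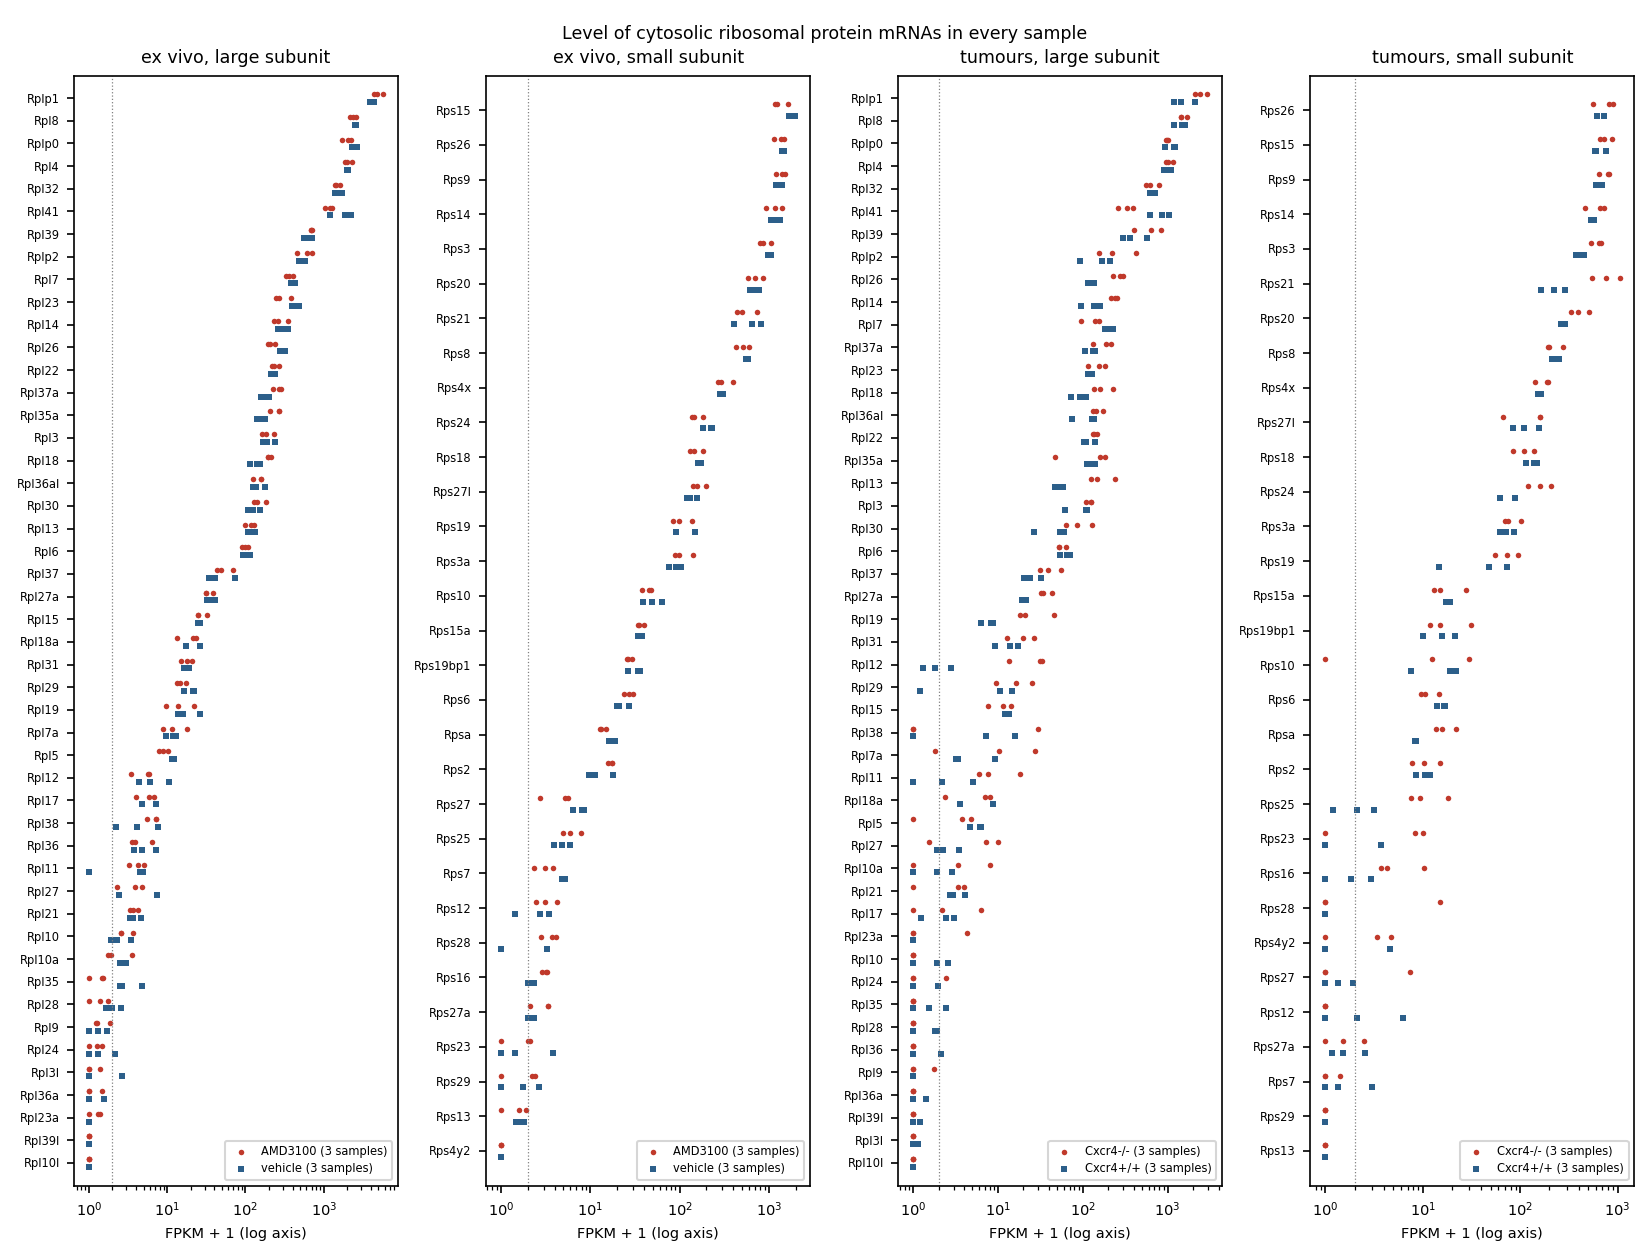
Each point is the level of a gene (48 large-subunit and 31 small-subunit genes) in a sample, as FPKM + 1 on a log axis, for AMD3100 (red circles) and vehicle (blue squares) ex vivo and for Cxcr4-/- (red circles) and Cxcr4+/+ (blue squares) tumours, with genes ordered by mean and a dotted line at 1 FPKM. In both tables Rplp1 leads the large subunit, and genes such as Rps13 and Rpl9 lie at or near 0.

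Ribosomal protein genes are known for their many processed pseudogenes in mammalian genomes. An annotated transcript per gene, of middle length, was therefore compared letter by letter with all transcripts of other genes. Some of these transcripts were long, with 5179 bases for Rps15a and 3706 for Rps20, against a median of 830 over measured genes ex vivo. Rps15a and Rps20 had 6.37% and 7.57% of their windows shared, and the effect of transcript choice on the shares was not tested. Of the 82 genes, 69 (84.1%) had over 20% of their 50-base windows, the length of a read here, in the transcript of another gene as well, against 12.3% of the other tested genes ex vivo. The windows below are examples from genes of low listed level, each a window of its gene found in the most other genes. Genes listed high also held widely shared windows, such as Rpl23, with a window in 58 other genes and an ex vivo mean of 369 FPKM. Each printed window is on the mRNA strand, from GENCODE M21 (GRCm38).
Rpl23a, in 18 other genes: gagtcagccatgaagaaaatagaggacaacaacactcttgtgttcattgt
Rpl10, in 10 other genes: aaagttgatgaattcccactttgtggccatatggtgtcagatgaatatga
Rpl9, in 8 other genes: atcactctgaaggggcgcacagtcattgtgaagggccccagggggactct
Rps13, in 5 other genes: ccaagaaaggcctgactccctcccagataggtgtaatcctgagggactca
Rpl35, in 5 other genes: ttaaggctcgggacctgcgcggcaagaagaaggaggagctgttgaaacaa

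Rpl35, Rpl9 and Rpl10 had 95.1%, 93.3% and 92.1% of their windows in another gene, whereas Rps3 and Rpl8 had 2.96% and 7.86%. Rps27 and Rpl36a, listed far below their relatives, had 98.6% and 85.5%, against 22.4% for Rps27l and 63.3% for Rpl36al. The median share was 40.4% among genes at 100 FPKM or more ex vivo, 72.4% at 1 to 10 FPKM and 51.7% under 1 FPKM. Exceptions ran both ways, as Rps18 and Rpl3 had 86.7% and 85.6% of their windows shared and were listed above 100 FPKM. Over the 82 genes the Spearman correlation between share and mean FPKM was -0.349 ex vivo and -0.381 in the tumours, as a description. How the deposited values treat reads that match several genes is not stated, and the part of shared sequence in the listed levels was not tested. The Spearman correlation of this share with the fitted log2 change was -0.0657 over 69 genes ex vivo and 0.0401 over 66 genes in the tumours, again as a description.

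**Figure D2:**
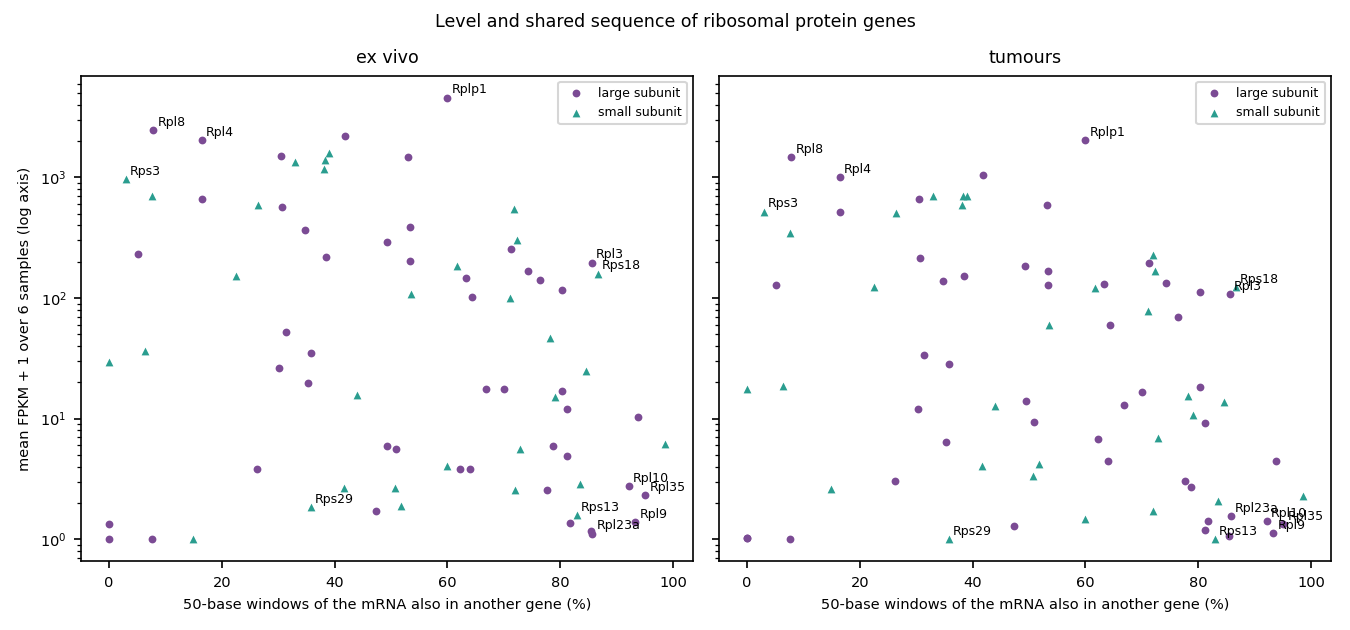
Each point is a gene. The x axis is the percentage of the 50-base windows of its compared transcript that occur in another gene. The y axis is its mean FPKM + 1 over the 6 samples of the table, on a log scale. Rps3 and Rpl8 share few windows and are listed high, some variants share few and lie near 0, and genes with over 80% range from near 0 (Rpl9, Rps13) to above 100 FPKM (Rpl3, Rps18).

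The first comparison asks what blocking CXCR4 with AMD3100 did to ribosomal protein mRNAs. With same-numbered samples fitted as pairs, 6 passed an adjusted p of 0.05, 3 higher and 3 lower with AMD3100. Rpl18, Rpl35a and Rpl37a rose by 0.55 to 0.64 on the log2 scale, and Rpl23, Rpl26 and Rpsa fell by 0.37 to 0.59. This was 8.7% of the 69 genes, where 19.9% of all 10245 genes tested were called, 9.96% higher and 9.92% lower. The large subunit had 3 higher and 2 lower of 40, and the small subunit 0 higher and 1 lower of 29. Without the pairing, 0 of the 69 genes and 13 of all genes were called by limma, while at an unadjusted p under 0.05 the paired fit had 22 of the 69 (39% of all genes). All 6 calls were also lost when pair 1 or pair 2 was left out, and 3 of them when pair 3 was left out.

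The starts of the 6 called genes are shown with a run of C and T in capitals, since ribosomal protein mRNAs as a class are known for such a run at their first base. Each runs from 20 bases before to 50 bases after the annotated start in RefSeq (GRCm38.p6). A run was counted where a C was followed by at least 5 bases that were each C or T, on the gene's strand only, anywhere in this window. Only the longest run is in capitals. For a gene with several promoters, the one with the longest run was taken.
Rpl18 (chr7:45718051-45718120, plus strand): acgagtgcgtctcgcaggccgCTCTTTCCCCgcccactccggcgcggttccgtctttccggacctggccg
Rpl35a (chr16:33056433-33056502, plus strand): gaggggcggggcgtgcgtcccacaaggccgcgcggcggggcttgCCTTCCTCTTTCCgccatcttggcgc
Rpl37a (chr1:72711240-72711309, plus strand): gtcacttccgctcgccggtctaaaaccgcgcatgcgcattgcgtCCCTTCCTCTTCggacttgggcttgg
Rpl23 (chr11:97782390-97782459, minus strand): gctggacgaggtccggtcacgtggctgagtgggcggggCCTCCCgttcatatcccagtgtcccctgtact
Rpl26 (chr11:68901546-68901615, plus strand): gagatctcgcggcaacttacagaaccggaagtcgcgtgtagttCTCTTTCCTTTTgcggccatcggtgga
Rpsa (chr9:120127746-120127815, plus strand): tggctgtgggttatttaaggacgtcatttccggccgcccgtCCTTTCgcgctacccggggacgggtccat

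A run stood in the windows of 50 of the 60 ribosomal protein genes with a promoter in the table, and in 77.5% of their 71 promoters against 44.7% of all 32851 promoters. In the genes that rose, the longest runs had 10 to 13 bases, and Rpl18 held a further, shorter run in lower case. Among those that fell, Rpl26 had 12 bases, and Rpl23 and Rpsa had 6 each. The longest run began at base 2 of the annotated transcript in Rpl18 and at bases 19 to 25 in the other 5 genes, so by this annotation it was not at the first base. A match of this kind describes the letters only and does not show a working TOP tract.

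Among the genes that rose, Rpl18, a protein of the large subunit, had 213, 194 and 191 FPKM with AMD3100 and 152, 138 and 113 FPKM with vehicle. All 3 AMD3100 samples lay above all 3 vehicle samples, with a log2 change of 0.57 ± 0.08 (SE, n = 3 pairs; adjusted p = 0.020). Rpl35a, a gene mutated in human Diamond-Blackfan anaemia, had 207, 268 and 264 FPKM with AMD3100 and 154, 179 and 140 FPKM with vehicle. Its groups did not overlap either, and the log2 change was 0.64 ± 0.11 (adjusted p = 0.025). Rpl37a, a small zinc-binding protein of the large subunit, had 285, 270 and 221 FPKM with AMD3100 and 200, 171 and 157 FPKM with vehicle. Each pair moved the same way, by 0.51, 0.66 and 0.49, with a fitted change of 0.55 ± 0.07 (adjusted p = 0.020).

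Among the genes that fell, Rpl23, a large-subunit protein that can bind the p53 regulator Mdm2, had 378, 268 and 245 FPKM with AMD3100 and 487, 387 and 447 FPKM with vehicle. All AMD3100 samples lay below all vehicle samples, and the log2 change was -0.59 ± 0.11 (SE, n = 3 pairs; adjusted p = 0.031). Rpl26, which lines the exit of the peptide tunnel, had 236, 204 and 191 FPKM with AMD3100 and 324, 280 and 276 FPKM with vehicle. The pair differences of Rpl26 were close together, at -0.46, -0.45 and -0.53, and the fitted change was -0.48 ± 0.06 (adjusted p = 0.020). Rpsa, the small-subunit protein also known as the laminin receptor precursor, had 14.2, 12.3 and 11.95 FPKM with AMD3100 and 17.9, 17.5 and 15.2 FPKM with vehicle. Its groups were apart by a narrow gap, and the log2 change was -0.37 ± 0.08 (adjusted p = 0.040).

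**Figure D3:**
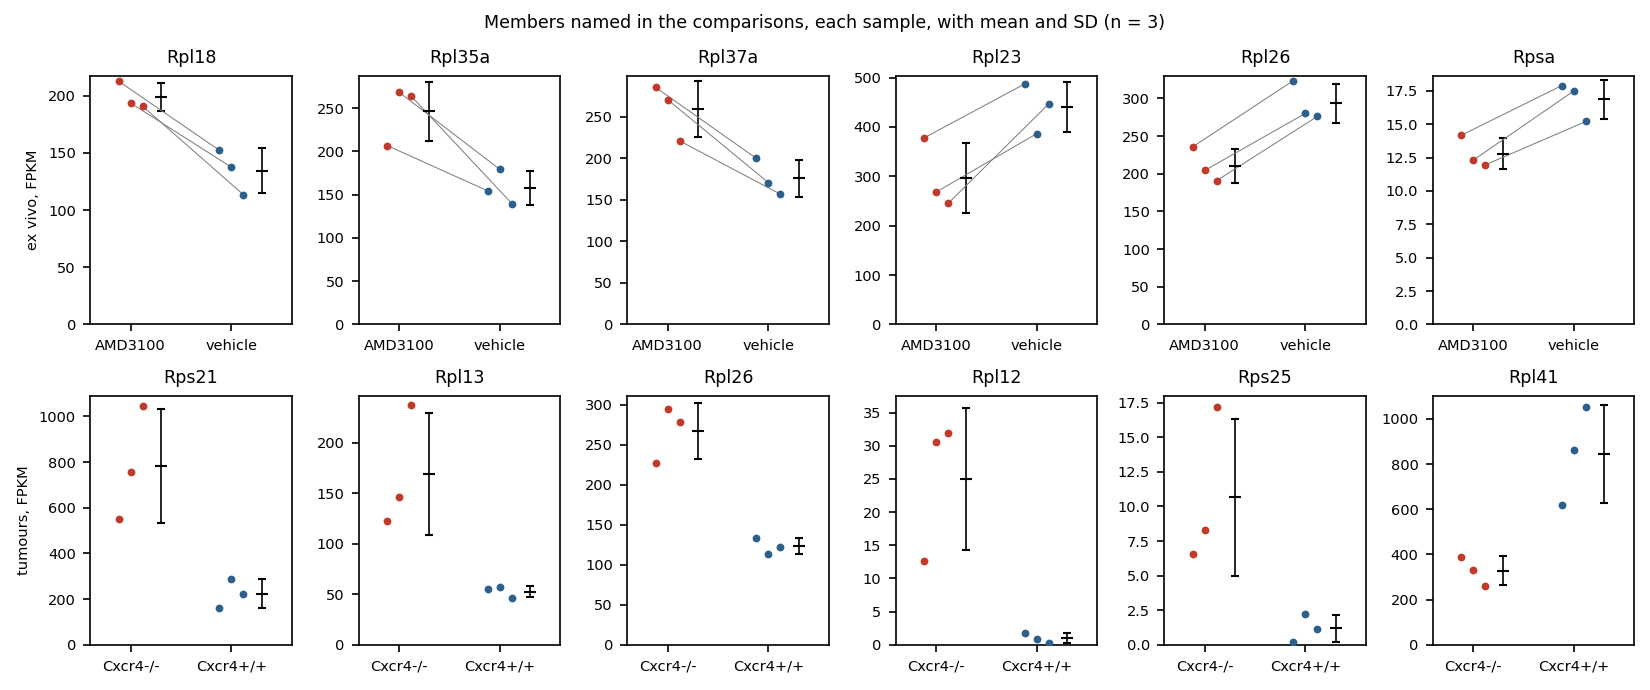
Points are single samples in FPKM on axes that start at 0, black marks are means with SD (n = 3), and grey lines in the upper row join same-numbered samples. Upper row: Rpl18, Rpl35a and Rpl37a were higher and Rpl23, Rpl26 and Rpsa lower with AMD3100 than with vehicle in all 3 pairs. Lower row: Rps21, Rpl13, Rpl26, Rpl12 and Rps25 were higher and Rpl41 lower in all 3 Cxcr4-/- tumours than in any Cxcr4+/+ tumour, with no adjusted p under 0.05.

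The stalk proteins did not pass the test. Rplp0 had 2221, 2039 and 1708 FPKM with AMD3100 and 2660, 2296 and 2279 FPKM with vehicle. Its groups did not overlap, with a log2 change of -0.28 ± 0.11 (adjusted p = 0.12). Its partners Rplp1 and Rplp2 had log2 changes of 0.23 and 0.09.

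Of the proteins around the tunnel exit other than Rpl26, Rpl35 had the most negative fitted change of all, at -1.27 ± 0.35 (adjusted p = 0.061). It was listed at 0.529, 0 and 0.464 FPKM with AMD3100 and 1.68, 3.71 and 1.48 FPKM with vehicle. Rpl35 was also the gene just inside the level limit, at a mean of 1.31 FPKM that came mainly from the vehicle samples, and Rps23, at 0.886 FPKM, was just outside. Rpl19, Rpl31 and Rpl39 had log2 changes of -0.34, 0.01 and 0.17.

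Rpl41, the shortest ribosomal protein, differed between pairs. It had 1216, 1261 and 1032 FPKM with AMD3100 and 1186, 2237 and 1873 FPKM with vehicle. The vehicle sample 1 stood with the AMD3100 samples, and the log2 change of -0.55 ± 0.20 was not called (adjusted p = 0.11). Rpl38, Rpl11 and Rpl27 were the large-subunit genes with the widest spread within groups, all under 10 FPKM in every sample, and Rpl11 was listed at 0 in vehicle sample 3. Rpl38, known in mice for its part in translating Hox mRNAs, had the most positive fitted change of the large subunit, at 0.68 ± 0.35 (adjusted p = 0.21), with pair differences of -0.07, 0.42 and 1.69.

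In the small subunit, Rps15 near the decoding site had 1632, 1239 and 1158 FPKM with AMD3100 and 1831, 1664 and 1983 FPKM with vehicle. All AMD3100 samples lay below the vehicle samples, with a log2 change of -0.46 ± 0.14 (adjusted p = 0.081). The abundant Rps26, Rps9, Rps14 and Rps20 had log2 changes from -0.09 to 0.05. Rps6, the substrate of S6 kinase, had 23.0, 26.3 and 29.02 FPKM with AMD3100 and 20.2, 26.0 and 18.7 FPKM with vehicle, which overlap.

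Larger fitted changes in the small subunit belonged to genes listed under 10 FPKM. Rps28 had 3.16, 1.79 and 2.77 FPKM with AMD3100 and 2.23, 0 and 0 FPKM with vehicle, the most positive change at 1.25 ± 0.33 (adjusted p = 0.057). It passed the level limit only through the AMD3100 samples, as its vehicle mean was 0.745 FPKM. Rps16 had 2.23, 1.90 and 2.24 FPKM with AMD3100 and 1.02, 1.12 and 1.34 FPKM with vehicle, without overlap (adjusted p = 0.073). Rps27 and Rps7 were the most negative, at -0.81 ± 0.27 and -0.74 ± 0.19 (adjusted p = 0.093 and 0.051), each without overlap. The next in each direction lay at higher levels, with Rps2 at 0.42 ± 0.18 and Rps24, a Diamond-Blackfan anaemia gene in humans, at -0.46 ± 0.15 (adjusted p = 0.16 and 0.093). Rps12, at 2.09, 3.19 and 1.47 FPKM with AMD3100 and 0.443, 2.44 and 1.76 FPKM with vehicle, and Rps21, at 735, 439 and 496 FPKM with AMD3100 and 825, 408 and 639 FPKM with vehicle, had the widest spread within groups after Rps28.

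Over all measured genes, the median fitted log2 change was -0.049 in the large subunit and -0.00034 in the small subunit, against 0.0022 over all genes tested. A fitted log2 change within 0.3 of 0 was found for 45 of the 69 and for 63.7% of all genes, and 31 of the 69 had a change above 0 (50.3% of all genes). Groups lay fully apart for 5 of the 69 genes with AMD3100 higher (7.25%, against 13.1% of all genes) and for 10 with AMD3100 lower (14.5%, against 15.8%). At similar levels the contrast with other genes was wider. Among genes at 100 FPKM or more, 5 of the 36 ribosomal protein genes were called (13.9%), against 37.5% of 821 other genes. These other genes leaned lower with AMD3100, with a median log2 change of -0.18, 38.5% apart lower and 9.99% apart higher. The 36 had a median of -0.04, with 5 apart lower and 4 apart higher. The part of this lean in the contrast was not tested. The median SD within groups was 0.18 on the log2 scale for the ribosomal protein genes and 0.15 for the others. This SD is taken before pairing, whereas the paired fit uses the spread left after the block, which was not compared between these classes. Fitted changes moved with transcript length over all tested genes (Spearman 0.309), and the measured ribosomal protein transcripts are short, with a median of 830 bases against 2683. With a length correction the medians were 0.11 and 0.15 and the small subunit had 5 calls in place of 1; the part of length was not tested further.

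Summed over the subunit, the large-subunit genes came to 18320 ± 1296 FPKM with AMD3100 and 18750 ± 616 FPKM with vehicle (SD, n = 3). The small-subunit genes came to 12850 ± 1915 FPKM with AMD3100 and 13380 ± 758 FPKM with vehicle. Both differences were smaller than the spread between samples. The 82 genes together took 7.28%, 7.10% and 6.16% of the summed FPKM in AMD3100 samples and 7.23%, 7.15% and 6.45% in vehicle samples, so that sample 3 was the lowest in both groups. The ratio of large to small was 1.28, 1.52 and 1.52 with AMD3100 and 1.35, 1.46 and 1.40 with vehicle.

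**Figure D4:**
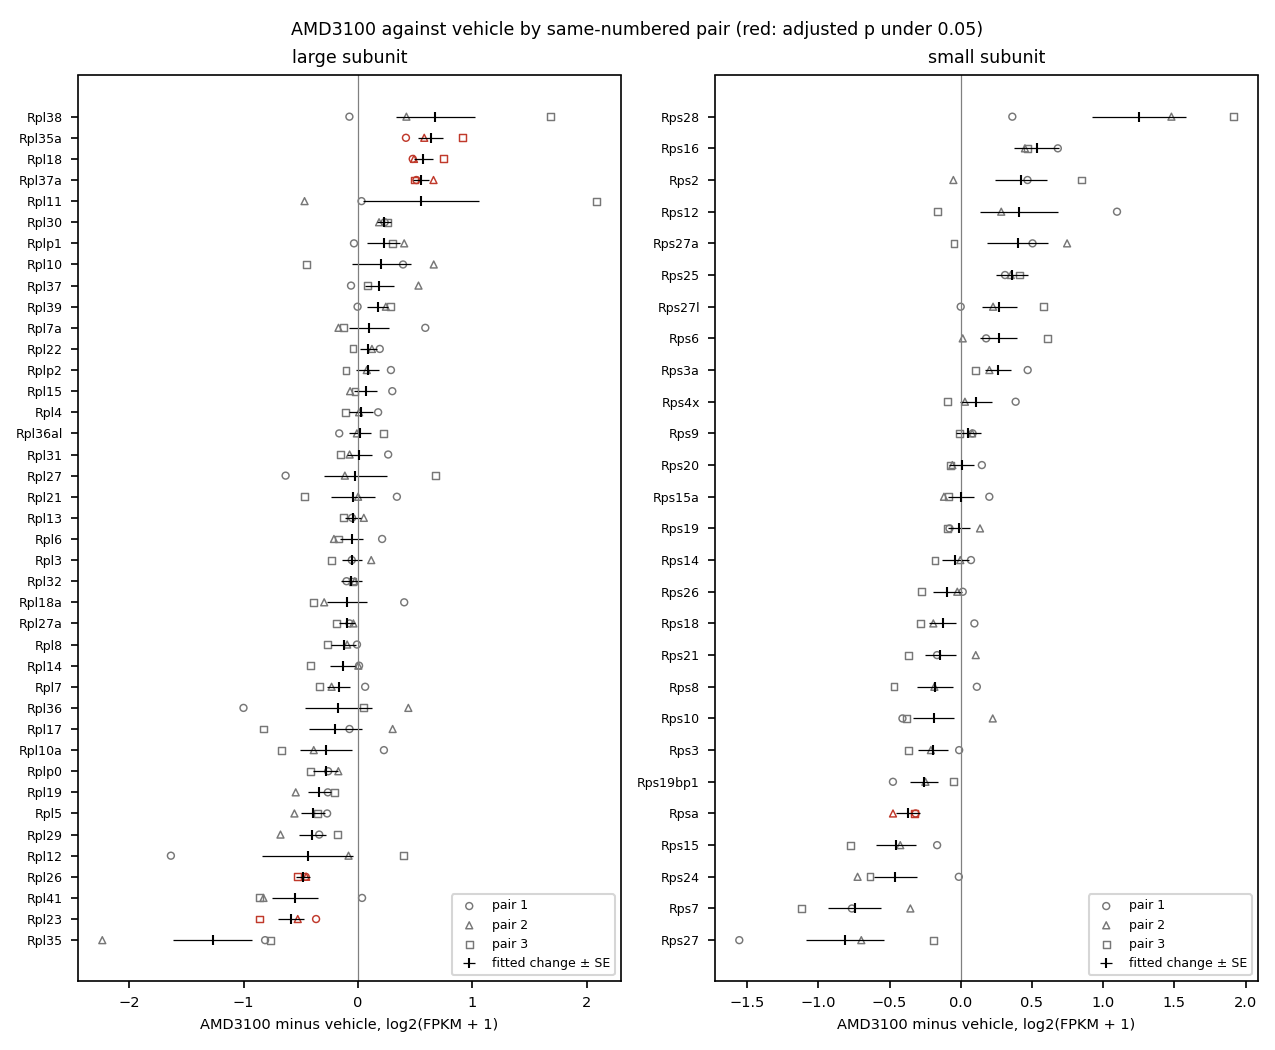
The x axis is the difference AMD3100 minus vehicle in log2(FPKM + 1) for pairs 1, 2 and 3 (open symbols) and the fitted change with its SE (black), for 40 large-subunit and 27 small-subunit genes measured ex vivo. Red marks the 6 genes with an adjusted p under 0.05, whose pairs lie on the same side of 0, and most other genes straddle or adjoin 0.

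Genes outside the ribosomal proteins were read in 2 related lists. Of 21 measured other TOP mRNAs, which encode translation factors and snoRNA hosts, Eif3f and Pabpc1 rose and Eef1d and Ybx1 fell. These 4 calls of 21 are near the share of 19.9% over all genes. Of 20 genes of the mTORC1 pathway, 4 rose and 5 fell, where 9.96% of all genes were called higher and 9.92% lower. The 3 with the smallest p were Sesn2, a stress-induced inhibitor of mTORC1, at 13.9, 13.1 and 28.2 FPKM with AMD3100 and 6.13, 5.69 and 9.60 FPKM with vehicle, and Eif4ebp1 and Lamtor1. Eif4ebp1, a repressor of cap-dependent translation, rose to 119, 110 and 126 FPKM with AMD3100, against 71.3, 71.7 and 49.5 FPKM with vehicle. Lamtor1, a lysosomal anchor of mTORC1, fell to 23.9, 27.4 and 24.7 FPKM with AMD3100, against 30.8, 35.5 and 31.5 FPKM with vehicle. The other 6 called genes, named after their values were seen, were Eif4ebp2 and Ddit4, both inhibitors, which were higher, and Eif4g1, Eif4e, Rraga and Rps6kb2, which were lower with AMD3100.

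Rps6kb2, one of the S6 kinases, had 6.32, 7.70 and 10.9 FPKM with AMD3100 and 12.4, 12.6 and 14.1 FPKM with vehicle (log2 change -0.62 ± 0.13, adjusted p = 0.033). Rps6kb1 and Rps6ka1 did not pass the test. Of the paralogs set apart by name, Rpl7l1 fell (log2 change -0.40 ± 0.09, adjusted p = 0.036) and Rpl22l1, at 241, 158 and 130 FPKM with AMD3100 and 222, 191 and 144 FPKM with vehicle, was not called. Of the ribosomal components under other names, Gnb2l1 (RACK1) and Fau had log2 changes of -0.15 and -0.01. Myc had 177, 206 and 116 FPKM with AMD3100 and 203, 214 and 213 FPKM with vehicle, and Cxcr4, whose product AMD3100 blocks, had 183, 136 and 212 FPKM with AMD3100 and 183, 112 and 141 FPKM with vehicle. Neither passed the test, at adjusted p = 0.17 and 0.15.

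The second comparison sets tumours labelled Cxcr4-/- against tumours labelled Cxcr4+/+. The targeted gene was listed at 23.2, 78.9 and 21.9 FPKM in Cxcr4-/- tumours and 241, 155 and 206 FPKM in Cxcr4+/+ tumours, without overlap but also without an adjusted p under 0.05 (log2 change -2.49 ± 0.51, adjusted p = 0.99). None of the 66 measured ribosomal protein genes passed the test with limma, where 0.0372% of 10741 genes did (4 genes, 0.0186% higher and 0.0186% lower). At an unadjusted p under 0.05, 14 ribosomal protein genes were higher and 1 lower in Cxcr4-/- tumours, where 4.28% of all genes lay under it in either direction. All 3 Cxcr4-/- tumours exceeded all 3 Cxcr4+/+ tumours for 17 of the 66 genes (25.8%), against 4.01% of all genes, and the reverse held for 2 (3.03%, against 5.2%); 9.21% of all genes were apart in either direction. The 17 were 10 of the 37 large-subunit and 7 of the 29 small-subunit genes. Of these, Rpl12 and Rps16 passed the level limit only through the Cxcr4-/- tumours, with Cxcr4+/+ means of 0.969 and 0.942 FPKM. With 3 tumours against 3, an exact permutation test of a single gene cannot give a p under 0.1.

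The stalk and its base held the widest gap. Rpl12, which forms the base of the stalk with Rplp0, had 12.6, 30.6 and 31.9 FPKM in Cxcr4-/- tumours and 1.78, 0.814 and 0.311 FPKM in Cxcr4+/+ tumours. The log2 change of 3.69 ± 0.51 was the largest of the 66 in either direction, with an adjusted p of 0.31. Its Cxcr4+/+ mean of 0.969 FPKM lay under the level limit. Ex vivo Rpl12 was listed between 2.42 and 9.62 FPKM and its groups overlapped. Rplp1 was apart as given above, while Rplp0, at 990, 1021 and 959 FPKM in Cxcr4-/- tumours and 923, 1200 and 1210 FPKM in Cxcr4+/+ tumours, overlapped.

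Tunnel-exit genes varied among themselves. Rpl26 had 227, 295 and 278 FPKM in Cxcr4-/- tumours and 134, 114 and 122 FPKM in Cxcr4+/+ tumours (log2 change 1.10 ± 0.26, adjusted p = 0.99). This gene was lower in all AMD3100 samples ex vivo and higher in all Cxcr4-/- tumours. Rpl19 had 19.99, 45.5 and 17.1 FPKM in Cxcr4-/- tumours and 7.25, 7.71 and 5.30 FPKM in Cxcr4+/+ tumours, and the genotypes were apart. Rpl31 and Rpl39 overlapped, and Rpl35 was listed at 0 in all 3 Cxcr4-/- tumours and in 1 Cxcr4+/+ tumour.

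Among other large-subunit genes, Rpl13 had 123, 146 and 237 FPKM in Cxcr4-/- tumours and 54.8, 56.8 and 46.0 FPKM in Cxcr4+/+ tumours, a mean of 169 ± 60.3 against 52.5 ± 5.7 FPKM (SD, n = 3 each). The log2 change was 1.61 ± 0.32 (adjusted p = 0.99). Rpl18, called higher with AMD3100 ex vivo, had 136, 224 and 160.5 FPKM in Cxcr4-/- tumours and 71.5, 110 and 92.2 FPKM in Cxcr4+/+ tumours, again apart. The other called large-subunit genes of the ex vivo comparison, Rpl35a, Rpl37a and Rpl23, overlapped between genotypes. Rpl14, Rpl27a, Rpl30 and Rpl11 complete the 10 that were apart, with log2 changes of 0.88, 0.84, 1.00 and 2.065.

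Against these stood Rpl41, at 388, 333 and 262 FPKM in Cxcr4-/- tumours and 617, 863 and 1053 FPKM in Cxcr4+/+ tumours, the most negative change of the 66 (log2 -1.35 ± 0.35, adjusted p = 0.99). Rpl7, an RNA-binding protein of the large subunit, was the other gene lower in all Cxcr4-/- tumours, at 137, 156 and 95.1 FPKM against 227, 198 and 184 FPKM in Cxcr4+/+ tumours. Rpl5 had 3.85, 2.82 and 0 FPKM in Cxcr4-/- tumours and 3.68, 5.32 and 5.12 FPKM in Cxcr4+/+ tumours, which overlap. The widest spread within groups was that of Rpl38, listed at 0, 29.02 and 0 FPKM in Cxcr4-/- tumours and 14.97, 6.33 and 0 FPKM in Cxcr4+/+ tumours, followed by Rpl7a and Rpl29.

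In the small subunit Rps21 had 549, 755 and 1046 FPKM in Cxcr4-/- tumours and 162, 287 and 223 FPKM in Cxcr4+/+ tumours. The lowest Cxcr4-/- tumour was well above the highest Cxcr4+/+ tumour, with a log2 change of 1.79 ± 0.38 (adjusted p = 0.99). Its start (chr2:180257359-180257428, plus strand, RefSeq GRCm38.p6) is shown because it had the widest gap among small-subunit genes at 100 FPKM or more. The longest run of C and T is in capitals and begins at base 35 of the annotated transcript. A shorter run that also meets the rule, left in lower case, spans the annotated start.
Rps21: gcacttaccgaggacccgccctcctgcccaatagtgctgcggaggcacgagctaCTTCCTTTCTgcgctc

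Rps25, a protein of the head needed by several viral internal ribosome entry sites, had 6.56, 8.32 and 17.2 FPKM in Cxcr4-/- tumours and 0.202, 2.21 and 1.12 FPKM in Cxcr4+/+ tumours, with the largest change of the subunit at 2.43 ± 0.55 (adjusted p = 0.99). Rpsa, which fell with AMD3100, had 14.9, 12.6 and 21.1 FPKM in Cxcr4-/- tumours and 7.36, 7.32 and 7.64 FPKM in Cxcr4+/+ tumours, so that it was higher in all Cxcr4-/- tumours. Rps24, Rps3, Rps20 and Rps16 were also apart, with log2 changes of 1.01, 0.54, 0.53 and 1.64. The abundant Rps26 and Rps15 overlapped. Rps6 had 8.51, 9.53 and 13.8 FPKM in Cxcr4-/- tumours and 15.9, 15.5 and 13.1 FPKM in Cxcr4+/+ tumours, which overlap.

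Several small-subunit values rested on a few tumours. Rps10 was listed at 11.5, 29.01 and 0 FPKM in Cxcr4-/- tumours and 6.55, 18.2 and 21.2 FPKM in Cxcr4+/+ tumours, and its log2 change of -1.03 became 0.39 without Cxcr4-/- tumour 8. Rps28 was listed above 0 only in Cxcr4-/- tumour 7, at 14.1 FPKM, and Rps23 was listed at 0 in Cxcr4-/- tumour 8 and in 2 Cxcr4+/+ tumours. Rps12 was just inside the level limit at a mean of 1.06 FPKM, all of it from 2 Cxcr4+/+ tumours, and Rps27a was just outside at 0.720 FPKM.

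**Figure D5:**
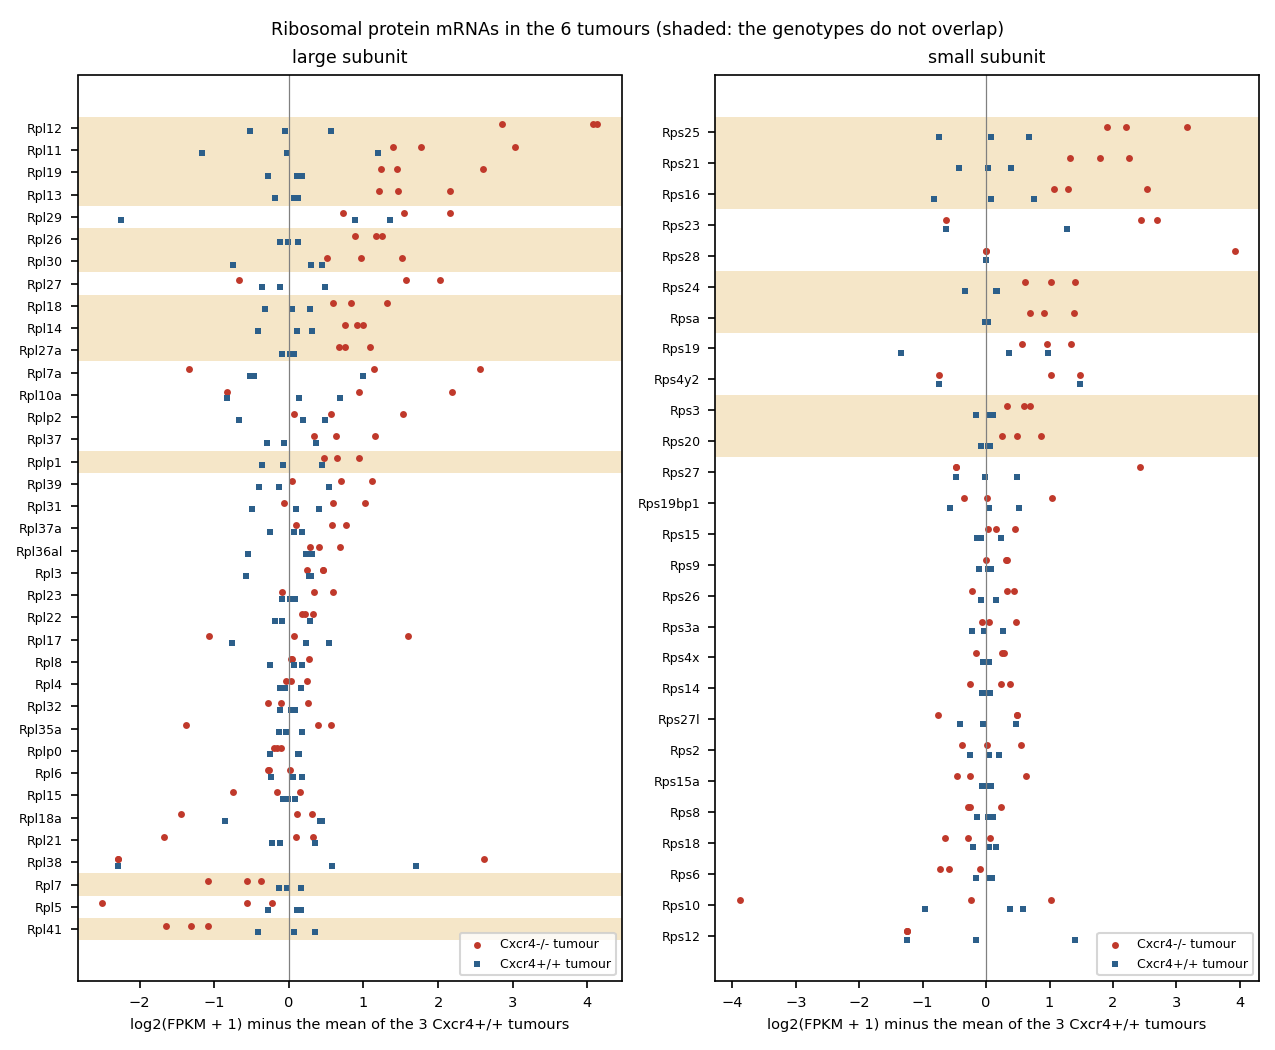
The x axis is log2(FPKM + 1) minus the mean of the 3 Cxcr4+/+ tumours, for each Cxcr4-/- (red circles) and Cxcr4+/+ (blue squares) tumour, with 37 large-subunit and 27 small-subunit genes measured in the tumours ordered by fitted change. Shaded genes are those whose genotypes do not overlap, 17 with Cxcr4-/- higher and 2 (Rpl7 and Rpl41) with Cxcr4-/- lower.

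The median fitted log2 change was 0.48 in the large and 0.22 in the small subunit, against -0.03 over all genes, and 48 of the 66 genes (72.7%) had a change above 0, against 47.7% of all genes. Among genes at 100 FPKM or more, 9 of the 33 ribosomal protein genes were apart with Cxcr4-/- higher, against 4.44% of 653 other genes at that level. Ribosomal protein mRNAs also varied less within genotypes than other abundant mRNAs, with a median SD of 0.28 against 0.58 on the log2 scale. Scaled to the summed FPKM without haemoglobin genes, 12 of the 66 were apart with Cxcr4-/- higher (18.2%, against 1.72% of all genes), and leaving out a tumour gave 18 to 27. The share over all genes also moved in these settings: without Cxcr4-/- tumour 5 it was 40.9% of the ribosomal protein genes against 12% of all genes, and without Cxcr4+/+ tumour 1 it was 27.3% against 17.5%. With Cxcr4-/- lower, 2 to 7 genes were apart, the most without Cxcr4-/- tumour 7 (10.6%, against 11% of all genes). Stromal markers summed to 0.977 to 2.77 FPKM in Cxcr4-/- tumours and 5.44 to 22.9 FPKM in Cxcr4+/+ tumours, without overlap, and their part in these values was not tested. These sums came mainly from Pdgfrb and Fn1, and Col1a2, Col3a1, Cxcl12 and Sparc of the 7 markers were listed at 0 in all 6 tumours.

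Summed over the large subunit, FPKM was 9305, 10872 and 10193 in Cxcr4-/- tumours and 7567, 9686 and 8775 in Cxcr4+/+ tumours, which overlap. The small-subunit sum was 6532, 8233 and 7879 in Cxcr4-/- tumours and 5859, 6420 and 5893 in Cxcr4+/+ tumours, which do not. As a share of the summed FPKM without haemoglobin genes, the small subunit took 1.41%, 1.92% and 2.17% in Cxcr4-/- tumours and 1.61%, 1.81% and 1.39% in Cxcr4+/+ tumours, and these overlap.

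Among related genes, Fau, which encodes the small-subunit protein Rps30 fused to a ubiquitin-like protein, had 5.15, 12.2 and 19.2 FPKM in Cxcr4-/- tumours and 2.00, 1.33 and 2.28 FPKM in Cxcr4+/+ tumours (log2 change 2.05 ± 0.52, adjusted p = 0.99). Of the 21 measured other TOP mRNAs none was called, and Tpt1 alone was higher in all Cxcr4-/- tumours, at 20.6, 18.1 and 6.40 FPKM against 0.981, 2.73 and 4.69 FPKM in Cxcr4+/+ tumours. Naca and Eif2s3x were lower in all of them. The median log2 change of these TOP mRNAs was -0.11. None of the 20 mTORC1 pathway genes was called, with a median of -0.15. The paralogs Rpl7l1 and Rpl22l1 had log2 changes of -0.26 and 0.28. Myc, at 48.5, 80.02 and 107 FPKM in Cxcr4-/- tumours and 50.6, 110 and 72.7 FPKM in Cxcr4+/+ tumours, overlapped.

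The genes tied to human T-ALL were read across both tables. Rpl22 had 268, 228 and 218 FPKM with AMD3100 and 234, 209 and 225 FPKM with vehicle. It had 131, 145 and 135 FPKM in Cxcr4-/- tumours and 108, 140 and 102 FPKM in Cxcr4+/+ tumours, so that groups overlapped in both tables. Rpl5, which carries 5S ribosomal RNA into the large subunit together with Rpl11 and with it can bind Mdm2, had 9.25, 6.81 and 7.93 FPKM with AMD3100 and 11.3, 10.5 and 10.4 FPKM with vehicle. Its ex vivo groups were apart, and the log2 change of -0.39 ± 0.10 had an adjusted p of 0.055. Rpl11 had 4.03, 2.28 and 3.25 FPKM with AMD3100 and 3.93, 3.54 and 0 FPKM with vehicle. It had 6.67, 4.92 and 17.4 FPKM in Cxcr4-/- tumours and 0, 1.21 and 4.15 FPKM in Cxcr4+/+ tumours, where the genotypes were apart. Rpl10 was listed at or under 2.64 FPKM in every library.

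Across the 64 genes measured in both tables, the changes with AMD3100 and with the Cxcr4-/- genotype had no common order, with a Spearman correlation of -0.0239 between the fitted log2 changes, given as a description. Of these genes, 23 were above 0 in both and 12 below 0 in both. Of the 6 genes called ex vivo, Rpl18 was apart in the same direction in the tumours, Rpl26 and Rpsa were apart in the opposite direction, and Rpl35a, Rpl37a and Rpl23 overlapped between genotypes.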

How the data were processed

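The authors deposited FPKM values in 2 tables of 6 samples, made with CASAVA and TopHat against genome build mm9 per the submitters' processing notes. Libraries were strand-specific (dUTP) and sequenced from a single end for 50 bases, per the labels' protocols. The program and annotation behind the FPKM values, and the treatment of reads that match several genes, are not stated there. A value of 0 can be a failed estimate, so it is only called listed at 0. Columns were matched to samples by their names.

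Tests used log2(FPKM + 1), so changes of low genes are understated. Genes averaging 1 FPKM or more were fitted with limma 3.58.1 in R 4.3.3 (eBayes with a trend on the mean, two-sided tests). P-values were adjusted over all of these genes by Benjamini-Hochberg, and adjusted values under 0.05 were called. Tables were fitted separately. The script was tested on simulated data. Ex vivo the replicate number was a block. Same-numbered samples deviated together, with correlations of 0.467, 0.579 and 0.619, and others had -0.473 to 0.0455. What the number marks is not labelled, so the pairing rests on the shared numbers and these correlations. Tumours share no numbers.

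Named genes were the called ones, those of highest level, of most positive and negative change and of widest spread in each subunit and table, those next to the 1 FPKM limit, those listed at 0 throughout, and fixed related genes. Some genes that this takes in are counted but not reported here by name. Genes apart between groups, the T-ALL genes and others were picked with their values in view. The genes and lists were chosen with earlier results of these data known, so no p is given over them. Shared windows were exact 50-base matches on either strand between a GENCODE M21 transcript per gene and all transcripts of other genes, and promoters came from RefSeq (GRCm38.p6). Since the files use mm9, no other coordinates are given.

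Alternatives were a pseudocount of 0.1, a limit of 5 FPKM or none, median-of-ratios and quantile scaling, eBayes without a trend, summed repeated symbols, small RNAs left out, an adjusted p under 0.10, no block, a length correction and leaving out each sample or pair. Counts of genes whose groups lie apart and scaling without haemoglobin were added after seeing the data.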

Additional observations from a re-analysis of the deposited data

Results flagged for a closer look

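Rps15a-ps6, annotated by name as a pseudogene copy of Rps15a and left out by the symbol rule, drew attention as a difference in an entry outside the genes compared. It was listed at 15.9, 30.2 and 17.1 FPKM with AMD3100 and 3.82, 2.23 and 0.297 FPKM with vehicle, with a log2 change of 2.96 ± 0.39 (limma, n = 3 pairs, adjusted p = 0.020), higher in 3 of 3 pairs. Rps15a itself had a log2 change of -0.00034 ± 0.09. In the tumours Rps15a-ps6 overlapped between genotypes, at 19.0, 5.67 and 9.97 FPKM in Cxcr4-/- tumours and 7.18, 7.97 and 5.87 FPKM in Cxcr4+/+ tumours.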

How the results depend on the processing

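Ex vivo, 2036 genes, 5 large-subunit and 1 small-subunit genes were called with the replicate block. Without the block these were 13, 0 and 0; leaving out pair 1, 2 or 3 called 4, 6 and 559 genes, with 0 to 3 large-subunit and 0 small-subunit genes. Without a filter 1074 genes and 0 small-subunit genes were called, without a trend 1089 genes, and with an adjusted p under 0.10 3455, 10 and 8. Quantile scaling called 8 large-subunit and 2 small-subunit genes, and leaving out small RNAs 9 and 4. The length correction with the block gave medians of 0.114 and 0.153 and 5 small-subunit calls. Groups lay apart for 6 to 11 genes with AMD3100 higher and 10 to 21 lower when a sample was left out, where 15.6% to 22% and 18.6% to 21.2% of all genes were; without AMD3100 sample 1 it was 30.4% lower against 19.4% of all genes. In the tumours, 0 to 2 genes of any kind were called when a tumour was left out and 0 without a filter, which also gave a large-subunit median of 0.278. The small-subunit median was 0.219, and 0.387 without Cxcr4-/- tumour 8. The log2 change of Rps10 ran from -2.06 to 0.39 as tumours were left out, above 0 without tumour 8. Leaving out a tumour put 18 to 27 genes apart with Cxcr4-/- higher, where 5.97% to 17.5% of all genes were; 27 (40.9%, against 12%) came without tumour 5 and 18 (27.3%, against 17.5%) without Cxcr4+/+ tumour 1. The cause of these shifts was not tested, beyond fewer samples in those that left some out. No tumour alternative called a ribosomal protein gene. No paired analysis was possible for the tumours because the genotypes share no replicate numbers.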
